A study of Mus musculus with 33 samples.

Results

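The 3 mild late kidneys described here were the kidneys labelled week 7 or week 9 whose brightest Lcn2 probe set read 7 or less on the log2 scale, out of 10 kidneys of those weeks and 33 in the series, and they are set against the 5 kidneys of week 5. They were chosen by that 1 measured value. They were week 7 replicate 4, week 9 replicate 2 and week 9 replicate 3, and in this order their values are given throughout. Every kidney came from a separate NZB X NZW F1 (BWF1) mouse, a hybrid strain that develops lupus nephritis, and the study's methods give the treated mice as female, while the labels give no age. The 30 treated mice had received an adenovirus carrying a mouse interferon-alpha gene into a vein and were sampled 5 at a time at 1, 2, 3, 5, 7 or 9 weeks, while 3 kidneys came from mice with no treatment. The labels list no mice given an empty virus, so the virus and its interferon cannot be told apart in any difference from untreated mice. The mild late and week 5 mice shared the strain and the vector and differed in time since the injection. The paper describes injection at a single age, though its methods and results differ on the figure, so the later mice were also older. Time since injection and age cannot be told apart. RNA of the kidney was amplified, hybridised to mouse expression arrays of 45037 probe sets after removal of 104 controls, and normalised with RMA, a method that puts all arrays on 1 log2 scale on which a difference of 1 is a 2-fold change.

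Lcn2 encodes lipocalin 2, an iron-carrier binding protein that injured tubule cells release in large amounts, and Havcr1 encodes kidney injury molecule 1, a phosphatidylserine receptor that appears on injured proximal tubule cells. In lupus nephritis immune complexes settle in glomeruli, interferon and leukocytes follow, and damage then spreads to tubules, whose epithelium loses transport and metabolic functions while matrix accumulates. Immediate early genes are transcription factors and signalling regulators induced within minutes by growth factors, stress or cytokines, without new protein synthesis.

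The value used for the choice left a wide gap. Lcn2 read 4.30, 4.82 and 5.90 in the mild late kidneys and 4.46, 3.32, 3.996, 4.21 and 4.66 in the week 5 kidneys, so week 7 replicate 4 lay within the week 5 values and the other two lay above them. In the other 7 kidneys of weeks 7 and 9 it ran from 8.53 to 9.94. No late kidney lay between 5.90, the highest value inside the limit, and 8.53, the lowest outside it. Because the array carries 1 Lcn2 probe set and because the mild late kidneys were picked on it, no test is given for any gene between the mild late and week 5 kidneys, and those values are a description. A gene is called apart where every mild late kidney lies beyond every week 5 kidney. At any size, 208 of 17097 genes (1.22%) were apart upwards and 433 (2.53%) downwards. On average 7275 of the 17097 genes lay above week 5, fewer than lay below. Since the choice used these arrays, nothing is read from the counts of list members apart, or above or below week 5, that follow. The test that did not use the choice is that of the labelled groups: the mean of the week 7 and week 9 group means against week 5, over all 33 arrays, with limma and Benjamini-Hochberg adjustment over 45037 probe sets. That fit holds all 10 late kidneys, the mild ones included, and its changes are called late changes below. It shares the mild late and the week 5 kidneys with the description. For a gene named for being apart, a late change in the same direction is therefore partly built in and is no independent check.

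Havcr1 stood above week 5 in all 3 mild late kidneys. It read 7.54, 8.46 and 8.43, against 6.81, 6.93, 7.33, 7.48 and 7.23 at week 5, a difference of 0.99 ± 0.33 (SE). Week 7 replicate 4 lay just above the highest week 5 kidney, while both week 9 kidneys lay well above it. The other late kidneys ran from 9.45 to 10.83, so all 3 mild late kidneys lay below them. A dimmer Havcr1 probe set was apart as well, with a difference of 0.88. By this marker the mild late kidneys stood between week 5 and the other late kidneys, not at the week 5 level.

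**Figure D1:**
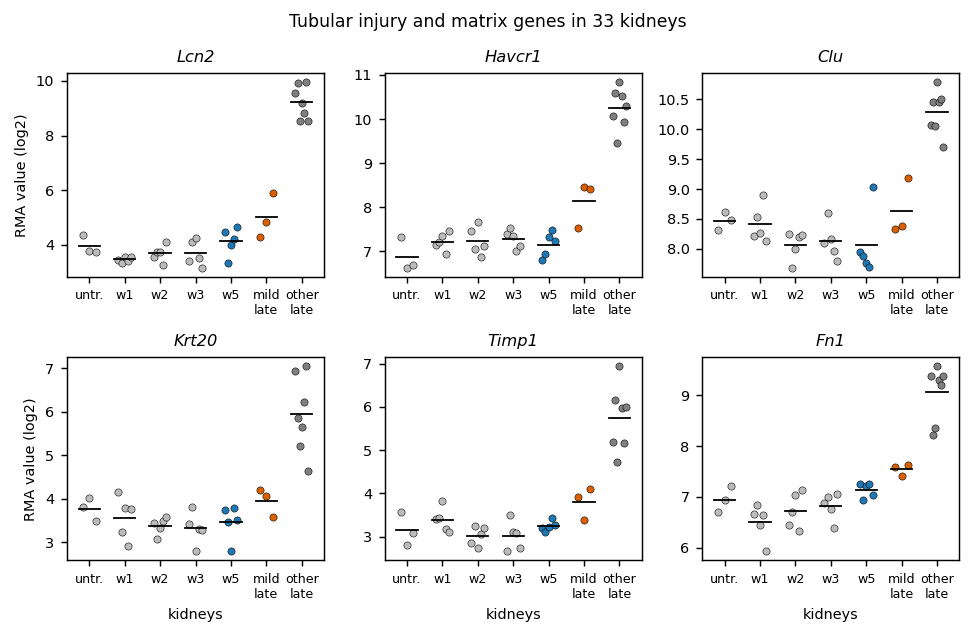
RMA values (log2) of Lcn2, Havcr1, Clu, Krt20, Timp1 and Fn1 in all 33 kidneys by group, with 1 point per kidney and a bar at each group mean. The mild late kidneys (orange) lie near week 5 (blue) and below every other late kidney (dark grey), and Havcr1 and Fn1 lie above every week 5 kidney.

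The remaining injury markers overlapped week 5. Clu, a secreted chaperone of damaged epithelium, read 8.34, 8.38 and 9.18, and week 5 replicate 5 at 9.04 lay above all but the last of these. Krt20, a keratin of injured tubule and urothelium, read 4.19, 4.07 and 3.58 against 3.74, 3.46, 2.81, 3.79 and 3.50. For Timp1, an inhibitor of matrix proteases, the values were 3.91, 3.40 and 4.11 against 3.19, 3.11, 3.22, 3.45 and 3.28, and only week 9 replicate 2 overlapped week 5. Vim, the intermediate filament protein of dedifferentiated tubule and of stroma, differed by -0.07 ± 0.34 (SE). Of the 17 measured members of the tubular injury list, which holds Lcn2 itself, 14 lay above week 5 on average with a median difference of 0.12, and Havcr1 was the only one apart. The median over the list was 0.09, 0.11 and 0.28 in the 3 kidneys relative to the week 5 mean, and no week 5 kidney exceeded 0.07. Without Lcn2, week 7 replicate 4 came to 0.05 and lay within the week 5 values, whose highest was then 0.06, while the other two stayed above at 0.09 and 0.28. The 7 other late kidneys had a median of 1.24 over the same 17 genes, and in the late fit 12 of the 17 rose and none fell (754 of 17097 genes, 4.41%, rose and 984, 5.76%, fell at an adjusted p below 0.05).

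Across the whole array the mild late kidneys resembled week 5 kidneys. The correlation over all probe sets was 0.989 to 0.992 between a mild late and a week 5 kidney and 0.990 to 0.992 between week 5 kidneys, as against 0.977 to 0.989 between the other late kidneys and week 5. Of 17097 genes, 98.64% differed from week 5 by less than 0.5 on the log2 scale in the mild late mean and 87.68% in the mean of the other late kidneys. A difference of at least 2-fold was seen in 26 of 45037 probe sets for the mild late kidneys and in 942 for the others, where the mean of 3 kidneys has the wider error. The step from week 3 to week 5 gave 69 and that from week 2 to week 3 gave 46, each with 5 kidneys on both sides. Single mild late kidneys differed by at least 2-fold from the week 5 mean in 73, 59 and 88 genes, and single week 5 kidneys differed from the mean of their 4 companions in 35 to 140.

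RNA quality moved with the choice of kidneys. The difference between the 3′ and 5′ probe sets of beta-actin, which grows with RNA breakdown or short amplification products, was 2.01, 2.01 and 2.19 in the mild late kidneys and 1.77 to 1.97 in the week 5 kidneys, so the groups did not overlap. In the other late kidneys it averaged 1.97 ± 0.10 (SD, n = 7). For Gapdh the same difference was 1.47 ± 0.00698 (SD, n = 3) in the mild late and 1.46 ± 0.08 (SD, n = 5) in the week 5 kidneys. The part of RNA quality in the gene differences below was not tested for the mild late kidneys, and in the late fit the ratio as a covariate gave 262 probe sets up and 209 down, against 215 and 183 without it. The number of arrays, and above all the 3 mild late ones, limits the precision of every difference given here.

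Apart and at least 2-fold higher were 7 probe sets (0.0155%), and 2 (0.00444%) were apart and at least 2-fold lower. The higher ones belonged to Nr4a3, Egr2 and Ubd, to an immunoglobulin kappa gene under an unofficial symbol, and to 3 probe sets without a gene name in the annotation, of which 1 differed most of all, by 1.45 ± 0.59 (SE). The lower ones belonged to Sox7 and, through a dimmer probe set, to Clec2h. In the late fit 215 probe sets (0.477%) rose and 183 (0.406%) fell by at least 2-fold at an adjusted p below 0.05.

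**Figure D2:**
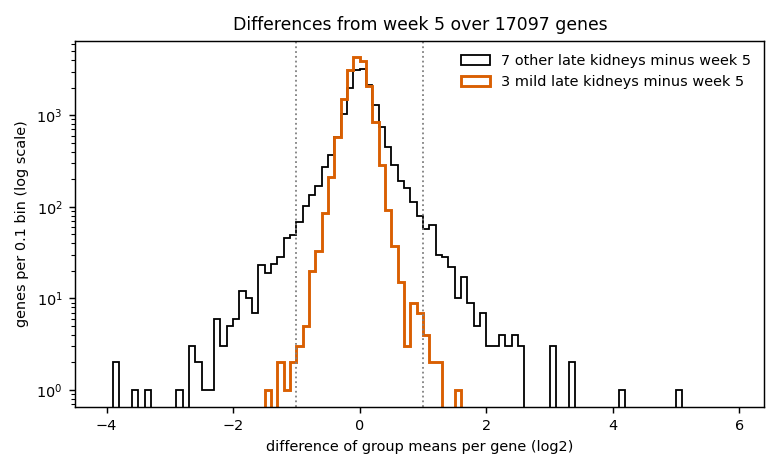
Number of genes per 0.1 bin (log scale) against the difference of group means from week 5 (log2), for the 3 mild late kidneys (orange) and the 7 other late kidneys (black), over 17097 genes. Dotted lines mark 2-fold, and the distribution of the mild late kidneys is the narrower one on both sides.

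Of the 7 probe sets that were apart and at least 2-fold higher, 2 belonged to immediate early genes, Nr4a3 and Egr2. Of the 21 measured members 5 were apart upwards and 1 downwards, where 208 and 433 of all 17097 genes were. The list median was 0.14, beside -0.03 over all genes. Nr4a3, an orphan nuclear receptor induced by cyclic AMP and calcium signals, read 7.45, 6.85 and 6.50 against 5.85, 5.96, 5.57, 5.76 and 5.97, a difference of 1.11 ± 0.29 (SE) or 2.16-fold. Its level was also high before and early after the injection, with means of 7.73 in untreated kidneys, 7.51 at week 1 and 5.21 at week 3, so the mild late kidneys lay between week 5 and the untreated level. Only the brightest of its 3 probe sets was apart, the others being dim and differing by 0.46 and 0.04. Egr2, a zinc finger factor of the early growth response family, read 6.56, 6.60 and 6.86 against 5.57, 5.11, 6.07, 5.62 and 5.86, a difference of 1.03 ± 0.19 (SE), and its second probe set was apart too at 0.97. In the other late kidneys Egr2 ran from 7.47 to 8.95, higher than in any mild late kidney, and the means of untreated kidneys and of weeks 1, 2 and 3 were 5.23, 5.04, 4.83 and 5.23.

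Ier3, a stress response gene that limits apoptosis, read 10.01, 10.06 and 10.50 against 9.08, 9.02, 9.56, 9.26 and 9.67, a difference of 0.87 ± 0.20 (SE). Week 9 replicate 3 reached the lowest of the other late kidneys, which ran from 10.48 to 11.12. Klf6, a Kruppel-like factor induced in injured epithelium, was even across the 3 kidneys at 8.94, 8.83 and 8.86, against 8.60, 8.46, 8.33, 8.34 and 7.95. Its dimmer probe sets differed by 0.35 and 0.39 and were not apart. Atf3, a bZIP repressor of the stress response, read 5.31, 5.03 and 5.31 against 4.76, 4.92, 4.76, 4.60 and 4.93, a difference of 0.42 ± 0.11 (SE). The member apart downwards was Maff, a small Maf protein, at -0.25, which falls outside the naming rule and was named after its value was seen. In the late fit all 5 genes that were apart upwards rose, by 2.12 ± 0.31 (SE, limma adjusted p = 0.000152) for Egr2, 1.20 ± 0.16 (SE, limma adjusted p = 0.000103) for Ier3, 1.17 ± 0.21 (SE, limma adjusted p = 0.000634) for Atf3, 1.13 ± 0.14 (SE, limma adjusted p = 5.98e-05) for Klf6 and 0.92 ± 0.24 (SE, limma adjusted p = 0.0133) for Nr4a3.

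Per1, a clock repressor that glucocorticoids and cyclic AMP also induce, read 6.08, 5.08 and 5.08 against 4.21, 4.23, 4.66, 4.59 and 4.51, and week 7 replicate 4 accounted for the largest part of the difference of 0.97 ± 0.35 (SE). Its group means were 5.74 in untreated kidneys and 4.44 at week 5. Of 17 measured clock genes 2 were apart upwards and 3 downwards, with a median of -0.03. Nfil3, a repressor that opposes the PAR bZIP factors, was the other higher one at 0.39, and the lower ones were Ciart at -0.39, Tef, a PAR bZIP activator, at -0.21 and Cry2, named after its value was seen, at -0.19. A dim second probe set of Tef differed by 0.10 and was not apart. Sgk1, a kinase induced by corticosteroids and osmotic stress, read 11.43, 10.82 and 10.64 against 10.41, 10.60, 10.45, 10.36 and 9.97, again highest in week 7 replicate 4. Untreated kidneys had a mean of 10.82 and ran from 10.66 to 11.01. Only week 7 replicate 4 lay above them, while week 9 replicate 2 lay within and week 9 replicate 3 just below. Cebpd, a factor of the acute response chosen after its values were seen, read 5.21, 5.07 and 6.14 against 4.05, 4.47, 4.89, 4.26 and 4.98. The labels give no hour of collection.

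Upstream sequence is shown for 4 of these genes because the half-site of the cyclic AMP response element, TGACG, is a textbook element of Nr4a3 and Per1 induction. It was searched on both strands, so that it reads CGTCA where it lies on the other strand. Each line holds the 250 bases before the most upstream start listed by RefSeq on GRCm38.p6, read 5′ to 3′ on the gene's strand, with half-sites in capitals. The windows are chr4:48045055-48045304 (plus strand) for Nr4a3, chr1:191183334-191183583 (minus strand) for Atf3, chr11:69098699-69098948 (plus strand) for Per1 and chr17:35821463-35821712 (plus strand) for Ier3.
Nr4a3: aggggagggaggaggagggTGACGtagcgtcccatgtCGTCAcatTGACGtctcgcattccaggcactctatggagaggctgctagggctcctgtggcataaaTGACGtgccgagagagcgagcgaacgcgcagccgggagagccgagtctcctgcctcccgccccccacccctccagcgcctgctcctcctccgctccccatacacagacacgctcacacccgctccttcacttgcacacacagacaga
Atf3: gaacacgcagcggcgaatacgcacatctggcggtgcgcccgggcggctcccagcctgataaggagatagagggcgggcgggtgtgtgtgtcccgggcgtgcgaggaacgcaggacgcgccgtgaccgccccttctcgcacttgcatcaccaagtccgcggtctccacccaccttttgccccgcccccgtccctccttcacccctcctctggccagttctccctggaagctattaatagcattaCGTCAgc
Per1: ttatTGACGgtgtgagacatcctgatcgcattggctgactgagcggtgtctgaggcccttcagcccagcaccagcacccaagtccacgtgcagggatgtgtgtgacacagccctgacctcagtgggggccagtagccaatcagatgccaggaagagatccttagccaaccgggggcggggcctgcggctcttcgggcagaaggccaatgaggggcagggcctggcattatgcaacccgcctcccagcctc
Ier3: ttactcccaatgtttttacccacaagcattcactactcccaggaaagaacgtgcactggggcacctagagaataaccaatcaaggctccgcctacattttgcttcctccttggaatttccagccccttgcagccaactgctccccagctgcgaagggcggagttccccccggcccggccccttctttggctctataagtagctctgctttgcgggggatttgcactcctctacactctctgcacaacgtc
Nr4a3 carried 4 half-sites, Atf3 1 and Per1 1, and none was found in the Ier3 window or in those of Klf6 and Egr2, although 3 of the 5 starts listed for Egr2 have one within 250 bases. Of 27025 genes with a listed start, 17.8% held the half-site in the same window and 1.6% the full palindrome TGACGTCA, which contains it, and which none of these 6 windows held. A match describes letters and not a bound site.

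Ubd encodes a ubiquitin-like modifier induced by interferon-gamma and tumour necrosis factor. It read 6.79, 5.76 and 5.99 against 5.50, 5.11, 4.87, 5.16 and 4.84, a difference of 1.08 ± 0.34 (SE), with week 7 replicate 4 the highest of the 3. In the other late kidneys it ran from 4.39 to 10.11, so the lowest of them lay below the mild late kidneys. The Ubd mean was 4.47 in untreated kidneys and 4.47, 4.83 and 5.82 at weeks 1, 2 and 3. Week 3 thus already stood above the week 5 mean of 5.10. Its late change was 1.75 ± 0.48 (SE, limma adjusted p = 0.0191). The call was lost in 4 of 22 other settings of the late fit: with weeks 5, 7 and 9 alone, with the beta-actin difference as a covariate, and without week 5 replicate 3 or 5, and adjusted p ran from 0.00222 to 0.123 over the 22.

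**Figure D3:**
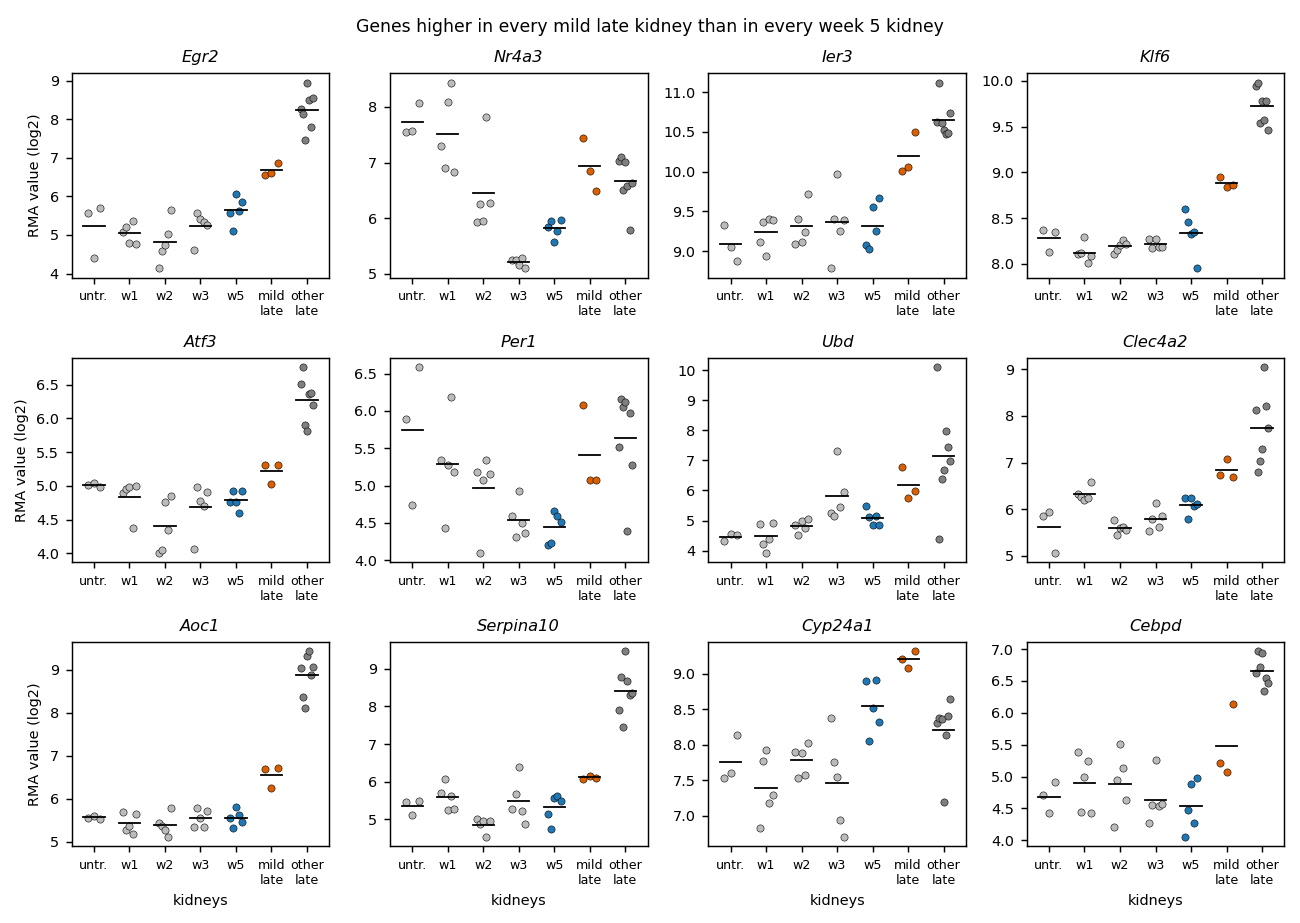
RMA values (log2) of 12 genes in all 33 kidneys by group, 1 point per kidney and a bar at each group mean, for genes that were higher in every mild late kidney than in every week 5 kidney. Egr2, Ier3, Klf6, Atf3, Per1, Ubd, Clec4a2, Aoc1, Serpina10 and Cebpd are higher still in the mean of the other late kidneys. Nr4a3 and Per1 have their highest mean in untreated kidneys, and Cyp24a1 has it in the mild late kidneys.

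Further higher genes were chosen after their values were seen, as genes that were apart and differed by at least 0.7. Aoc1, the diamine oxidase that degrades histamine and polyamines, read 6.69, 6.25 and 6.71 against 5.55, 5.33, 5.80, 5.63 and 5.46, a difference of 0.99 ± 0.17 (SE), and ran from 8.12 to 9.42 in the other late kidneys. Serpina10, the protein Z-dependent inhibitor of coagulation factor Xa, was nearly equal in the 3 kidneys at 6.08, 6.15 and 6.11, against 5.15, 4.75, 5.58, 5.61 and 5.49. Both stood at their week 5 level in untreated kidneys, with means of 5.57 and 5.36. Rbm3, a cold-inducible RNA-binding protein, differed by 0.96 ± 0.33 (SE), Dcdc2a, a doublecortin domain protein, by 0.77 ± 0.33 (SE) and Mtmr7, a phosphoinositide phosphatase, by 0.81 ± 0.23 (SE). Mtmr7 reached 4.42, 4.01 and 4.07, above the median of 3.80 in the other late kidneys. In the late fit Aoc1, Serpina10, Rbm3 and Dcdc2a rose and Mtmr7 did not pass (adjusted p = 0.119).

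Cyp24a1 was highest in the mild late kidneys. It encodes the 24-hydroxylase that degrades active vitamin D, mainly in proximal tubule. The mild late kidneys read 9.20, 9.09 and 9.31 and the week 5 kidneys 8.90, 8.04, 8.52, 8.92 and 8.31, a difference of 0.66 ± 0.18 (SE), while the other late kidneys ran from 7.19 to 8.65 and untreated kidneys had a mean of 7.76. All 3 mild late kidneys thus lay above all others of weeks 5, 7 and 9. The late change did not pass, at -0.04 ± 0.25 (SE, limma adjusted p = 0.967), and a dimmer probe set differed by 0.31 without being apart.

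A single gene of the proximal tubule list lay lower in every mild late kidney than in every week 5 kidney, while the list as a whole did not. Slc5a2, the sodium-glucose cotransporter of the early proximal tubule, read 7.96, 7.82 and 7.53 against 8.17, 8.30, 8.24, 8.21 and 8.16, a difference of -0.45 ± 0.13 (SE). It was the only one of 24 measured proximal tubule genes apart, and the list had a median of -0.06 in the mild late kidneys, each of which lay within the week 5 values, and -1.09 in the others. Untreated kidneys and those of weeks 1 to 3 had Slc5a2 means from 8.15 to 8.24, which no mild late kidney reached. In the late fit 18 of the 24 fell and none rose, beside 5.76% and 4.41% of all genes. In bulk tissue fewer cells of a type and less RNA per cell cannot be told apart, here and for each cell type list below.

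Amino acid and betaine catabolism, a function of proximal tubule mitochondria and cytosol, had the lowest median of the 4 metabolic lists, the others being oxidative phosphorylation, fatty acid oxidation and sterol synthesis. Of 23 measured genes 20 lay below week 5 on average with a median of -0.24. Apart downwards were 3, where 433 of all 17097 genes (2.53%) were. In single kidneys the list median was -0.08, -0.33 and -0.36, and the week 5 kidneys ran from -0.17 to 0.15, so both week 9 kidneys lay below week 5 and the week 7 kidney within it. Prodh2, which oxidises hydroxyproline, read 6.92, 6.87 and 6.72 against 7.14, 7.19, 7.36, 7.36 and 7.16, a difference of -0.40 ± 0.08 (SE). Aass, the first enzyme of lysine breakdown, read 9.45, 9.26 and 9.30 against 9.59, 9.69, 9.79, 9.74 and 9.51. Hgd, an enzyme of tyrosine breakdown, read 10.46, 10.35 and 10.24 against 10.63, 10.53, 10.60, 10.64 and 10.47, while its dimmer probe set, at -0.17, was not apart. The other late kidneys had a list median of -1.08, and 19 of the 23 fell in the late fit, beside 5.76% of all genes. All 16 measured oxidative phosphorylation genes lay below week 5 on average, where 7275 of all 17097 genes lay above it. Their median was -0.12 against -0.03 over all genes. In single kidneys it was -0.01, -0.19 and -0.16, and the week 5 kidneys ran from -0.05 to 0.08. The week 7 kidney thus lay within week 5 and both week 9 kidneys below it. Cox6c, a subunit of cytochrome c oxidase, was apart at -0.17. A second Cox6c probe set, at -0.09, was not apart.

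Gsta2, a glutathione transferase of the NRF2 target list, read 10.43, 10.10 and 9.80 against 10.68, 10.58, 10.68, 10.54 and 10.80, with week 9 replicate 3 the lowest, a difference of -0.55 ± 0.19 (SE). Me1, the malic enzyme that supplies NADPH, was the other of 13 list members apart, at -0.23. Second probe sets of Gsta2, at -0.58, and of Me1, at 0.08, were not apart. Fdps, a farnesyl diphosphate synthase of the sterol pathway, read 5.23, 4.80 and 4.73 against 5.63, 5.31, 5.48, 5.50 and 5.80, a difference of -0.62 ± 0.18 (SE). The other 7 late kidneys ran from 4.85 to 5.53, overlapping both, and the late change was -0.42 ± 0.24 (SE, limma adjusted p = 0.374). Asns, the asparagine synthetase of the amino acid stress response, read 4.66, 4.87 and 4.49 against 4.88, 4.90, 5.05, 4.90 and 5.26, lower than week 5, whereas the other late kidneys ran from 5.57 to 6.66, higher than every week 5 kidney. The difference between the mild and the other late kidneys was not tested because the choice on Lcn2 made these groups.

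Among the lower genes chosen after their values were seen was Dpep1, a brush border dipeptidase, with 7.77, 7.41 and 6.83 against 8.31, 7.92, 8.19, 8.05 and 7.86, a difference of -0.73 ± 0.29 (SE). It ran from 4.14 to 6.62 in the other late kidneys, below all 3. Untreated kidneys ran from 6.99 to 7.10, below week 7 replicate 4 and week 9 replicate 2 and above week 9 replicate 3, so Dpep1 was also low without treatment. Clec2h, a C-type lectin-like protein, read 6.30, 6.28 and 6.07 against 6.59, 7.03, 6.81, 7.41 and 7.20 and from 3.33 to 5.32 in the other late kidneys. Lpar3, a lysophosphatidic acid receptor, split the 3 kidneys at 5.57, 4.46 and 5.68, with week 9 replicate 2 within the other late kidneys (3.94 to 4.96) and the others just below week 5 (5.85, 6.23, 6.34, 6.27 and 5.79). Snx31, a sorting nexin, differed by -0.71 ± 0.17 (SE) and, with these 3 genes, fell in the late fit. Alx1, a homeobox gene, at -0.85 and Cox8b, a cytochrome c oxidase subunit of muscle and brown fat, at -0.77 did not pass it (adjusted p = 0.501 and 0.229). Morn4 at -0.79 and N4bp2l1 at -0.79 passed it with an adjusted p of 0.0116 and 0.0265. The mean of Alx1 was 5.37 in the mild late kidneys and 5.27 in untreated ones. The call of Morn4 was lost in 2 of 22 other settings, with weeks 5, 7 and 9 alone and without week 5 replicate 4 (adjusted p up to 0.0708), and that of N4bp2l1 in 8 of 21. The fat tissue list, of which 9 genes were measured, had a median of -0.66, ran from -1.41 to 1.02 in single week 5 kidneys and had no member apart, and its part in the values of Cox8b was not tested.

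**Figure D4:**
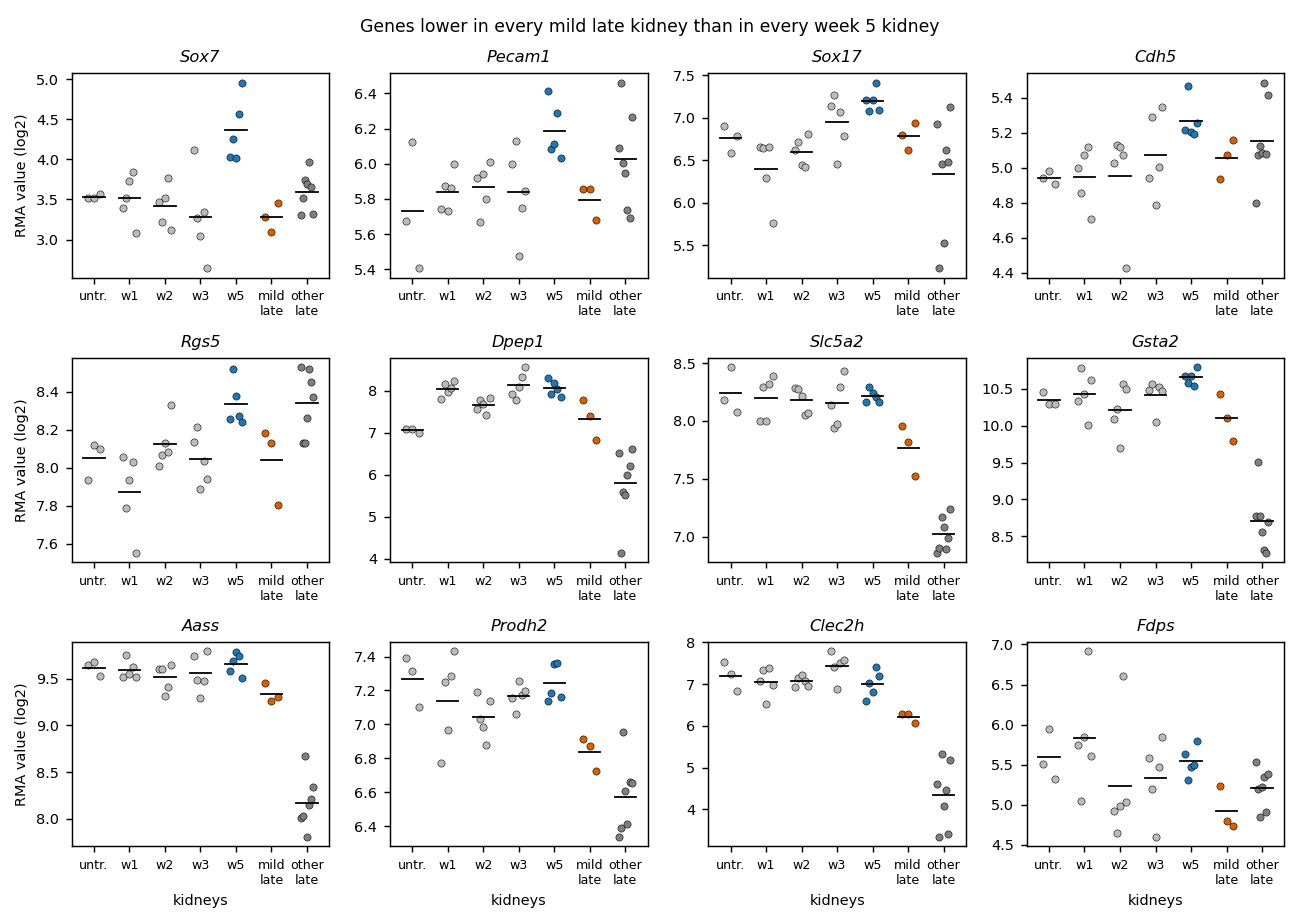
RMA values (log2) of 12 genes in all 33 kidneys by group, 1 point per kidney and a bar at each group mean, for genes that were lower in every mild late kidney than in every week 5 kidney. Dpep1, Slc5a2, Gsta2, Aass, Prodh2 and Clec2h have lower means in the other late kidneys, and Sox7 and Pecam1 are highest at week 5.

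Endothelial genes were lower than at week 5. Of 15 measured members 14 lay below week 5 on average, where over all 17097 genes 7275 lay above. The median was -0.21, beside -0.03 over all genes, and 3 members were apart downwards (433 of 17097 over all genes). The list median of each kidney, -0.17, -0.19 and -0.40, lay below every week 5 kidney, of which the lowest was -0.16. The other late kidneys were about as low, with a median of -0.22 and single kidneys from -0.38 to -0.17. Untreated kidneys had a median of 0.003 and ran from -0.24 to 0.02, so the lower level was not particular to the mild late kidneys. Pecam1, an adhesion molecule of endothelium and of some leukocytes, read 5.85, 5.85 and 5.68 against 6.42, 6.08, 6.11, 6.29 and 6.03, a difference of -0.39 ± 0.09 (SE). Sox17, a factor of arterial endothelium, read 6.80, 6.62 and 6.94 against 7.21, 7.08, 7.21, 7.42 and 7.09. Cdh5, the cadherin of endothelial junctions, read 4.93, 5.07 and 5.15 against 5.22, 5.47, 5.20, 5.19 and 5.26, a difference of -0.21 ± 0.08 (SE). Without week 9 replicate 3 the list median came to -0.07.

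Sox7, an endothelial factor related to Sox17, fell outside the list and gave the largest negative difference among the named genes. It read 3.28, 3.09 and 3.46 against 4.04, 4.25, 4.01, 4.57 and 4.96, a difference of -1.09 ± 0.21 (SE) or 2.13-fold lower. Its means were 3.53 in untreated kidneys and 3.51, 3.42 and 3.28 at weeks 1, 2 and 3, and the other late kidneys ran from 3.31 to 3.97, so the highest mean was that of week 5. Week 5 also had the highest mean of Pecam1, which was 5.73 in untreated kidneys, 5.84 at week 3, 6.19 at week 5 and 5.80 in the mild late kidneys. Rgs5, a pericyte marker, went from 8.04 at week 3 to 8.33 at week 5 and 8.04 in the mild late kidneys. Its mean in the other late kidneys was 8.34, so week 5 was not its highest level, and its other probe sets were not apart. Sox7 values are dim, its second probe set differed by 0.11, and the late change was -0.86 ± 0.18 (SE, limma adjusted p = 0.00193). The late changes of Pecam1, Cdh5 and Rgs5 did not pass (adjusted p = 0.303, 0.552 and 0.775), and that of Sox17 did (0.0177), although with weeks 5, 7 and 9 alone or without week 5 replicate 4 it did not (adjusted p up to 0.0911 over 22 settings). Week 5 had the higher mean than untreated kidneys in 7 of the 15 list members, so a level above untreated kidneys at week 5 was not shared by the whole list.

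Interferon-stimulated genes, antiviral effectors and their regulators, had no member apart from week 5. Of 30 measured members 2 lay above week 5 on average and the median was -0.25. Without week 9 replicate 2 the median turned to 0.09. In single kidneys the list median was 0.01, -0.70 and 0.16, and week 5 kidneys ran from -0.43 to 0.31, so week 9 replicate 2 lay below all of them and the other two within. Untreated kidneys lay lower, with a median of -1.73, and the other late kidneys higher, at 0.70. Ifih1, the RNA sensor MDA5, read 7.60, 6.92 and 7.77 against 7.78, 7.10, 7.48, 7.83 and 7.74. The 15 interferon-gamma-inducible genes and 9 MHC class I genes had medians of -0.13 each, and again only week 9 replicate 2 lay below week 5, at -0.66 and -0.53. Without it these medians turned to 0.12 and 0.07, and without week 5 replicate 1 that of the interferon-gamma-inducible genes turned to 0.03. The MHC class II list, a product of antigen-presenting cells, had a median of 0.29 with 6 of 9 members above week 5, and all 3 kidneys lay within the week 5 values, which ran from -0.23 to 0.66.

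Leukocyte lists stayed near week 5 while single members of the myeloid group were higher. Adgre1, a surface antigen that marks macrophages, read 3.98, 4.36 and 4.15 against 3.96, 3.18, 3.84, 3.85 and 3.03, a difference of 0.59 ± 0.22 (SE) at the dim end of the scale, with week 5 replicate 1 just below the lowest mild late kidney. It was the only one of 23 macrophage and monocyte genes apart, with a list median of 0.09 in the mild late kidneys and 0.64 in the other late kidneys. In the late fit 10 of the 23 rose, beside 4.41% of all genes. Clec4a2, an inhibitory lectin receptor of myeloid cells chosen after its values were seen, read 6.74, 7.07 and 6.69 against 6.23, 5.79, 6.24, 6.06 and 6.10, a difference of 0.75 ± 0.15 (SE), while its 2 dimmer probe sets were not apart. Complement genes had a median of 0.08 and chemokines one of 0.07, against 0.78 and 0.87 in the other late kidneys, with no member apart. T and NK cell, B cell and neutrophil lists had medians of -0.01, 0.01 and 0.00. S100a8, a granule protein of neutrophils, read 3.28, 2.62 and 2.68 against 2.66, 3.18, 3.18, 2.56 and 2.74, and S100a9 read 3.40, 3.29 and 4.35 against 3.56, 3.14, 3.18, 3.27 and 3.28, with week 9 replicate 3 the highest of the 8. Of 9 immunoglobulin and plasma cell genes 7 lay above week 5 on average, with a median of 0.18 and none apart. The highest difference in the list, and of all 17097 genes, was that of Jchain, the joining chain of polymeric immunoglobulin, at 1.51. Jchain, named after its values were seen, read 5.67 in week 7 replicate 4, within the week 5 values of 4.77 to 6.25, and lay above them in both week 9 kidneys, at up to 7.96. The immunoglobulin kappa probe set that was apart, at 1.05, is not in the list. Saa2, an acute phase protein, was apart at 0.30, and Saa3 was not, at -0.32.

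Few matrix genes were higher in every mild late kidney. Fn1, fibronectin, read 7.59, 7.42 and 7.63 against 7.25, 6.94, 7.22, 7.25 and 7.04, a difference of 0.41 ± 0.09 (SE). Ccn2, the connective tissue growth factor, read 11.25, 10.95 and 11.23 against 10.88, 10.68, 10.75, 10.68 and 10.65, a difference of 0.41 ± 0.11 (SE). These were the 2 of 28 measured matrix genes apart, and the list median was 0.04, against 1.13 in the other late kidneys, where Fn1 ran from 8.22 to 9.57 and Ccn2 from 11.37 to 11.79. In the late fit 18 of the 28 rose and none fell, beside 4.41% and 5.76% of all genes. Tnc, tenascin C, read 6.47, 5.77 and 6.41 against 6.10, 6.09, 6.19, 6.22 and 6.25, below week 5 in 1 kidney and above it in the other two. Acta2, smooth muscle actin, read 8.50, 7.66 and 8.50 against 8.64, 8.41, 8.14, 8.56 and 8.66, lower in week 9 replicate 2 than in any week 5 kidney. The Col1a2 probe set read under 2 in all 8 kidneys, too dim to give a level. Kirrel, a slit diaphragm protein of podocytes, was apart at 0.46 on its brighter probe set and not on the other (-0.10), and the podocyte list had a median of 0.04.

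**Figure D5:**
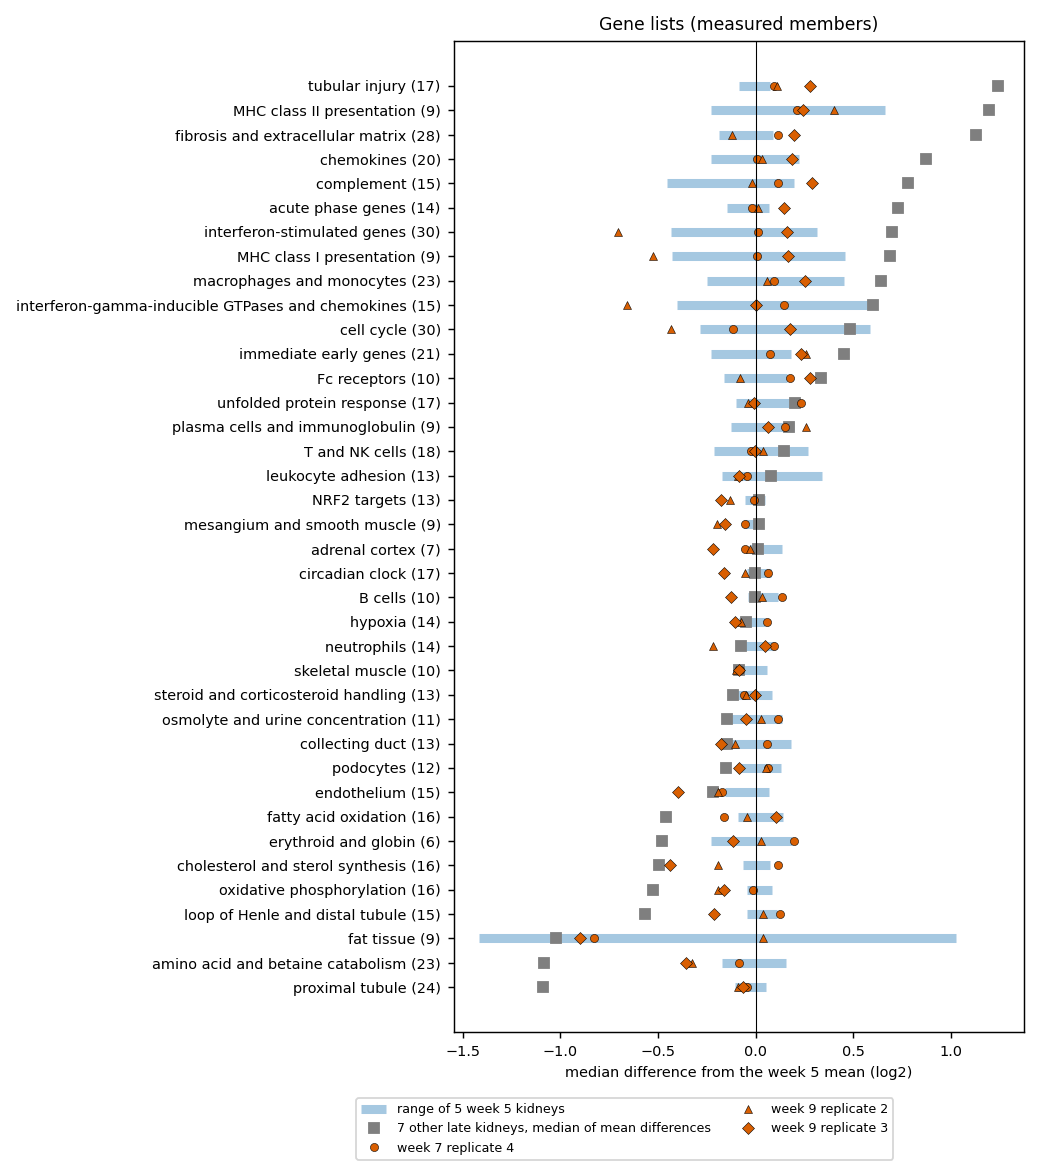
Median over the measured members of each of 38 gene lists (number in parentheses) of the difference from the week 5 mean (log2): the range of the 5 week 5 kidneys (blue bar), each mild late kidney (orange circle, triangle and diamond) and the other late kidneys (grey square). The mild late kidneys lie near 0 in most lists where the grey squares lie beyond 0.5 on either side.

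Over the 38 lists the mild late median lay within 0.3 of week 5 in 37, the fat tissue list being the exception. In 12 lists all 3 mild late kidneys lay within the week 5 values, and in 1, endothelium, all lay below. In tubular injury all lay above only with Lcn2, the gene used for the choice, counted in the list. In 20 lists no member was apart. The other late kidneys had a median of at least 0.5 in either direction in 15 lists. Cell cycle genes had a median of -0.13 in the mild late and 0.48 in the other late kidneys, and the first turned to 0.01 without week 9 replicate 2 and to 0.07 without week 5 replicate 1. Cholesterol synthesis genes had medians of -0.17 and -0.50.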

How the data were processed

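Kidney RNA of 33 mice was amplified and labelled with biotin, and the authors deposited 1 table of log2 intensities normalised with RMA on Affymetrix mouse arrays. The log base is not stated and was taken as 2 from the range of 0.585 to 13.9. Array medians ran from 3.97 to 4.1. The deposited table held 45141 probe sets, 104 of them controls, and every column matched 1 sample.

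Probe sets were named through the platform annotation (28898 with 1 symbol, 551 with several and 15588 without), and each of 17097 genes was read from its brightest probe set over 33 arrays. The members and the lists were chosen with earlier results of these data known. Mild late kidneys were compared with week 5 by group means, SE and overlap, with no test. The late change was fitted with limma 3.58.1 (R 4.3.3) as 7 group means with 26 residual degrees of freedom, Benjamini-Hochberg adjustment over 45037 probe sets, and a call at adjusted p below 0.05 and 2-fold, or any fold where list members were counted. The script was tested on simulated data. Because the labels give no batch, no batch was modelled. The paper reports 2 separate experiments over time with these mice, and the labels do not say which arrays came from which.

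Genes were named when apart and at least 2-fold different (up to 14 each way, Riken and similar symbols only counted), when among the 4 list members apart with the largest difference, or when fixed as injury or model genes. Of the fixed genes, Spp1 was not analysed here, since no single probe set was paired with it. Genes apart by 0.7 or more were added after their values were seen. Tables were made with Python 3.11.15, pandas 2.3.3 and numpy 2.4.6. Upstream sequences came from RefSeq on GRCm38.p6. Alternatives were the Lcn2 limit, medians, a filter of dim probe sets (mean under 5), centring, week 9 kidneys alone, each array left out, averaging over probe sets per gene, and other limma settings.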

Additional observations from a re-analysis of the deposited data

Results flagged for a closer look

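In week 5, Cdh5 read 5.466 in replicate 2, far above the other 4 kidneys of that week for their spread. Clu read 9.039 in week 5 replicate 5, and the other 4 kidneys of that week lay between 7.70 and 7.94. Both were picked because 1 kidney stood far from the others by Dixon's criterion, which chance meets in about 1 in 20 groups. Without week 5 replicate 5 every mild late kidney would lie above week 5 in Clu.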

How the results depend on the processing

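The number of probe sets apart and at least 2-fold depended on the kidneys compared: 7 were higher and 2 lower. With the limit at the highest week 5 Lcn2 value only week 7 replicate 4 remained and 62 were higher and 91 lower, and with the week 9 kidneys alone 24 and 12. Leaving out 1 kidney at a time gave 6 to 24 higher, with the count moved by more than 1.5 times for every kidney except week 5 replicate 2, and 2 to 13 lower, moved for each mild late kidney and for week 5 replicate 1. Fewer kidneys make it easier to be apart, by construction. Without dim probe sets 5 were higher and 0 lower, and after centring each array on its median 7 and 1, and no p was computed for these counts.

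The late fit called 215 probe sets up and 183 down. With weeks 5, 7 and 9 alone it called 133 and 101, without dim probe sets 140 and 161, and without 1 array 184 to 301 up and 137 to 261 down. The cause was not tested. The replicate numbers did not pair the kidneys, since the correlation of deviations over 15 same-numbered pairs of kidneys ran from -0.35 to 0.27 and exceeded 0.1 in 4. With the replicate number as a block the fit called 219 up and 182 down. With weeks 5, 7 and 9 alone Adgre1, Morn4, N4bp2l1, Nfil3, Saa2, Sox17, Tnc and Ubd lost their call.

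Of 380 recomputed list medians 368 moved by less than the spread between kidneys. The other 12 were in 7 lists. Mesangium and smooth muscle (-0.26) came to -0.20 with the mean over probe sets and to -0.15, -0.19 and -0.17 without week 7 replicate 4, week 9 replicate 2 and week 9 replicate 3. The circadian clock (-0.03) turned to 0.09 without week 9 replicate 2 and 0.05 without week 9 replicate 3, and the loop of Henle list (-0.05) to 0.08 without week 9 replicate 3. In all, 19 of 38 list medians changed sign when 1 kidney was left out, 4 of them at least 0.1 in size (interferon-stimulated, interferon-gamma-inducible, MHC class I and cell cycle genes, all without week 9 replicate 2) and the others at most 0.0919, among them complement, at -0.07, macrophages, at -0.02, and matrix genes, at -0.005, without week 5 replicate 2. Of 590 recomputed gene differences 584 moved by less than that spread, and the mean of all probe sets moved the rest (Clec4a2, Kirrel, Me1, Nr4a3, Sox7 and Tef). The precision is limited by the 3 mild late arrays.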
